A study of Mus musculus with 6 samples.

Results

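The genes described here encode the ERBB receptor tyrosine kinases (Erbb2, Erbb3, Erbb4 and Egfr), the ligands Nrg1 and Hbegf, and the intracellular receptor inhibitor Errfi1. They were taken from the deposited table by gene symbol, and the 7 symbols matched 8 of its 22063 rows. The second row carrying the symbol Nrg1 (ENSMUSG00000118541) had no count in any library, so Nrg1 below refers to ENSMUSG00000062991. The RNA came from cardiomyocytes that had been obtained by Langendorff perfusion, in which digestive enzyme is passed through the coronary vessels, from hearts of wild-type (WT) P21 mice. One group of mice had been given α-ketoglutarate (AKG), a metabolite of the citric acid cycle, at 300 mg/kg/d by daily injection for 2 weeks, and the Control group had been injected with PBS over the same period. Each group had 3 libraries (Control 1 to 3 and AKG 1 to 3). The study set out to find pathways that change in cardiomyocytes when the animals receive AKG. The labels give P21 both for the injected mice and for the hearts, and leave unsaid how many animals contributed to each library, so the p-values below measure only the spread between libraries.

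ERBB receptors are activated when a ligand brings receptor molecules together in pairs. ERBB2 binds no known ligand and serves as the partner of the others, whereas ERBB3 binds neuregulins but has little kinase activity of its own. In the heart, neuregulin-1 released largely by endothelial cells acts on ERBB4 and ERBB2 of cardiomyocytes, and this signal is needed for trabeculation in the embryo and is known to influence cardiomyocyte growth and proliferation after birth.

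The libraries held 14402876 to 17797368 counts, with all 3 Controls deeper than all 3 AKG libraries, and 3 counts corresponded to 0.166 to 0.221 CPM (counts scaled to a common library size by the TMM method of edgeR). The cardiomyocyte label was checked against 7 marker genes, whose summed level was 55920 to 60530 CPM in the Control libraries and 25440 to 28290 CPM in the AKG libraries. Of these 7 markers, 6 were lower in AKG, among them Myh6, the main adult myosin heavy chain (log2 fold change -1.16), and Tnnt2, cardiac troponin T (-0.67). Scaled by total counts, 5 of the 7 were lower and 1 was higher. In bulk RNA such as this, fewer cells of a type and less RNA per cell cannot be told apart. Atrial genes summed to 358 CPM in AKG 1 and 219 CPM in AKG 3, against 6.40 to 12.04 CPM in the other 4 libraries. Y-linked genes summed to 0.310 CPM in Control 2 and to 39.0 to 176 CPM in the others. No marker of any cell type list used here was at 0 in all libraries.

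Among the genes of the family, Erbb2, Erbb4, Nrg1 and Errfi1 were higher in AKG, Hbegf was lower, and Erbb3 and Egfr did not pass the test (edgeR quasi-likelihood test, Benjamini-Hochberg adjusted p under 0.05 over 13117 tested genes). The 5 calls are 71.4% of the 7 genes tested, where 50.2% of all tested genes were called, 25% as higher and 25.2% as lower. The Control and AKG libraries did not overlap in CPM for 6 of the 7 genes, beside 59.3% of all tested genes (29.4% with AKG above and 29.9% with AKG below). None of the 7 genes entered the test through the AKG libraries alone, since the smallest count of any of them in any library was 23. All 5 calls were kept in each of the 6 fits that left out 1 library. The scaling sets the zero point of these comparisons. When libraries were scaled by total counts in place of TMM, the median log2 fold change of all tested genes moved from 0.00 to 0.45 and the calls changed to 56.7% higher and 9.12% lower; Erbb2, Erbb4, Nrg1 and Errfi1 then remained higher, Egfr joined them, and Hbegf remained lower.

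**Figure D1:**
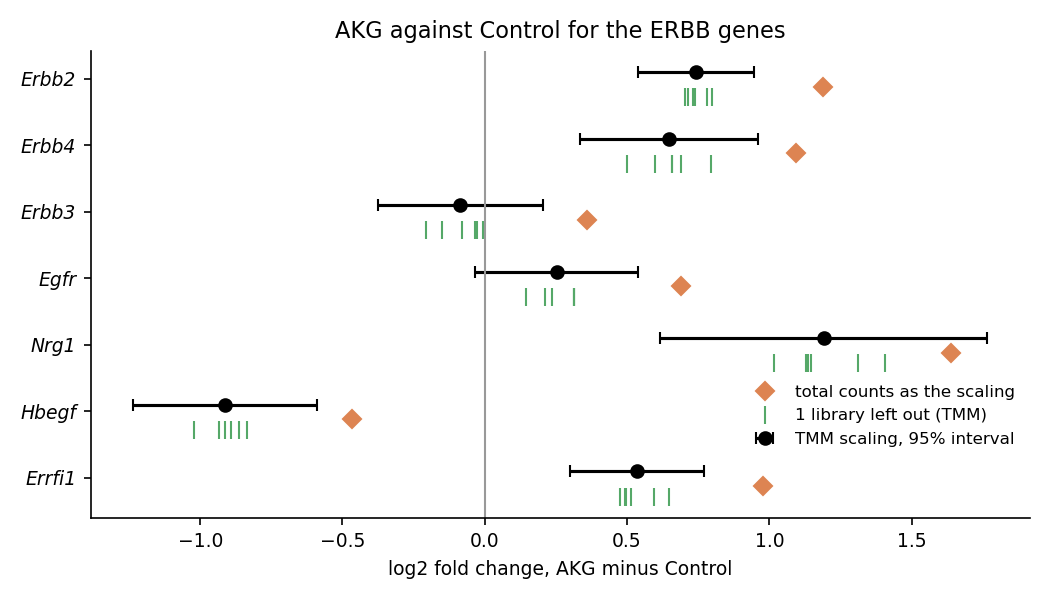
Log2 fold change of the 7 genes (AKG minus Control, edgeR, n = 3 libraries per group) as black points with 95% confidence intervals, with the values from the 6 fits without 1 library as green ticks and those with total counts as the scaling as orange diamonds. The intervals of Erbb3 and Egfr include 0, that of Hbegf lies below 0 and the other 4 lie above it.

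The sequences upstream of the transcription starts of Erbb2, Erbb4 and Errfi1 are given here because these genes were all higher in AKG, which lets their promoters be compared. Promoter entries of RefSeq (GRCm38.p6) matched 4 of the 7 symbols (Erbb2, Erbb4, Egfr and Errfi1), and the 250 bases before the start are printed 5′ to 3′ on the gene's strand. They are chr11:98412234-98412483 (plus strand) for Erbb2, chr1:69108060-69108309 (minus strand) for Erbb4 and chr4:150854820-150855069 (plus strand) for Errfi1. Capitals mark matches on either strand to 5 motifs, the GC box (GGGCGG), the TEAD site (GGAATG), the AP-1 site (TGANTCA), the E-box (CACGTG) and the CRE (TGACGTCA).
Erbb2: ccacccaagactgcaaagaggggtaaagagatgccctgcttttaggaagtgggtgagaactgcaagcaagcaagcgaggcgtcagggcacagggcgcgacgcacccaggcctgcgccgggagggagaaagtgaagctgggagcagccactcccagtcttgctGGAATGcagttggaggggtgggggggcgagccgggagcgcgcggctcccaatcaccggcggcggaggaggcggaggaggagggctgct
Erbb4: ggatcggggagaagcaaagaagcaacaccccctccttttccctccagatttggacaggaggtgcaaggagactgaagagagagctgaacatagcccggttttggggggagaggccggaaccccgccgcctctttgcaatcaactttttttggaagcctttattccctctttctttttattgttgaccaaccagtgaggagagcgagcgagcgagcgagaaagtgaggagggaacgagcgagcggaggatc
Errfi1: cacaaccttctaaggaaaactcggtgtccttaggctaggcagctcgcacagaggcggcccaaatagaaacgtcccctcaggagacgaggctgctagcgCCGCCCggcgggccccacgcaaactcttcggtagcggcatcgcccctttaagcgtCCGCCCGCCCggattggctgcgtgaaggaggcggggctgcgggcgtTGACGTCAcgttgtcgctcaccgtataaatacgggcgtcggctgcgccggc

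The Erbb2 window held 1 TEAD match, and 12.6% of 32851 promoter windows of this length hold at least 1. The Errfi1 window held 3 GC box matches, of which 2 overlap each other, and 1 CRE match. A GC box match occurs in 32.7% of all windows and a CRE match in 1.55%. The Erbb4 window held none of the 5 motifs, of which the AP-1 letters occur in 6.75% and the E-box letters in 6.02% of windows. RefSeq lists another start of Errfi1, whose window (chr4:150853546-150853795) held 1 TEAD match and none of the other motifs; it is not printed because the bases after that start were found in no GENCODE transcript of the gene, whereas those after the printed start were found in 2. No motif was found in all 3 printed windows. A match is a run of letters and not evidence of binding, and a window without one says nothing about the factor.

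Erbb2, the ligand-less partner receptor, stood at 18.8, 17.0 and 17.8 CPM in Control 1 to 3 and at 27.9, 30.7 and 31.2 CPM in AKG 1 to 3. Every AKG library lay above every Control library, and the libraries within each group lay close together. The mean rose from 17.9 ± 0.919 to 29.9 ± 1.80 CPM (SD, n = 3 each). This is a log2 fold change of 0.74 (SE 0.0947), or 1.67-fold with a 95% interval of 1.45 to 1.93 (edgeR adjusted p = 2.57e-05). A change of at least this size was seen in 9.63% of tested genes. The rise of Erbb2 stood beside the lower cardiomyocyte marker sum given above, and the part of cell composition in it was not tested.

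Erbb4, the receptor that binds neuregulin and has its own kinase activity, measured 11.9, 11.4 and 10.4 CPM in the Controls and 21.3, 14.0 and 17.6 CPM in AKG. The groups did not overlap, but AKG 2 lay nearer to the Controls than to AKG 1. Erbb4 rose 1.57-fold, from 11.3 ± 0.742 to 17.6 ± 3.63 CPM (log2 fold change 0.65, SE 0.146, edgeR adjusted p = 0.00222). The order of the AKG libraries was that of their atrial genes, which were at 358 CPM in AKG 1, 219 CPM in AKG 3 and 7.58 CPM in AKG 2. The atrial genes were high only in AKG 1 and AKG 3 and in no Control. Their part in the Erbb4 level therefore cannot be fully told apart from that of AKG. The fits below change how the atrial genes enter, but they do not decide the cause, which was not tested. With the mean level of the atrial genes as a covariate, calls over all genes went from 3281 higher and 3309 lower to 2071 and 2190. In that fit the log2 fold change of Erbb4 was 0.28 and the call was lost (edgeR adjusted p = 0.223). In AKG 2 alone against the Controls, the log2 fold change of Erbb4 was 0.32, a value that rests on 1 AKG library. Erbb2, Nrg1, Errfi1 and Hbegf passed the threshold in the fit with the atrial covariate.

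**Figure D2:**
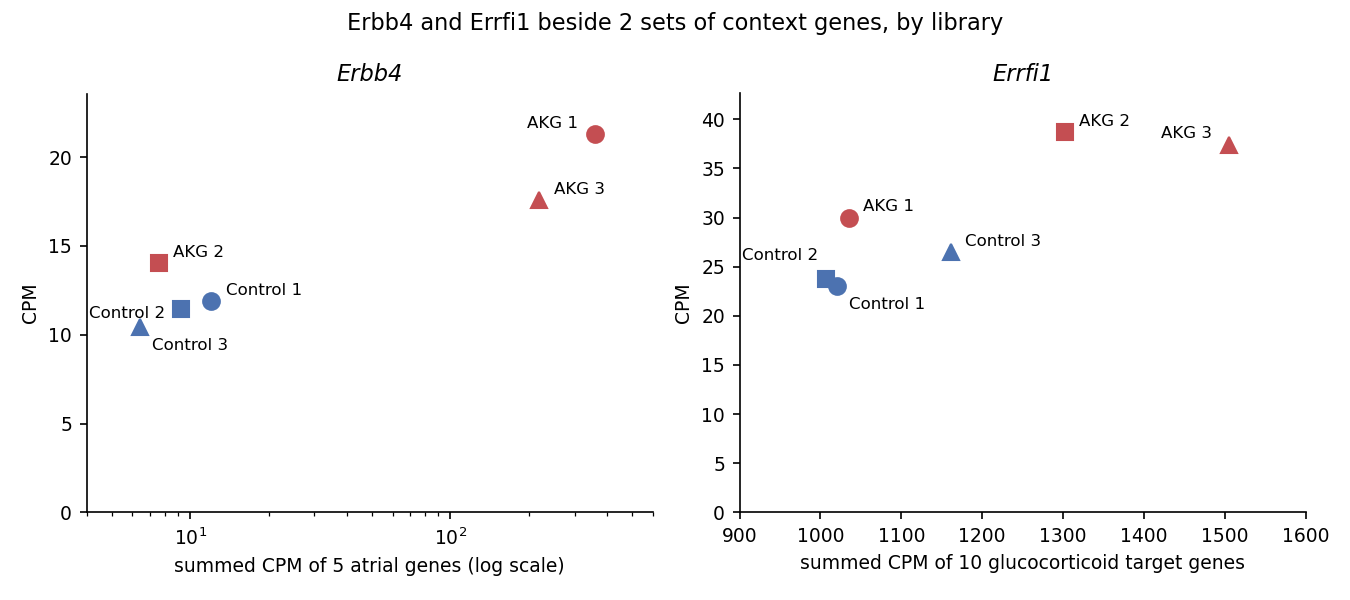
Erbb4 against the summed CPM of 5 atrial genes (left, log scale on the horizontal axis) and Errfi1 against the summed CPM of 10 glucocorticoid target genes (right), with 1 point per library. AKG 1 and AKG 3 stand apart on the left, and AKG 2 has a Control-like atrial sum with Erbb4 at 14.0 CPM, above the 3 Controls.

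Erbb3, the neuregulin receptor with weak kinase activity, was at 12.4, 13.2 and 11.1 CPM in the Controls and 10.4, 10.8 and 13.4 CPM in AKG. The groups overlapped, with AKG 3 the highest and AKG 1 the lowest of the 6 libraries. The means were 12.2 ± 1.06 and 11.5 ± 1.64 CPM, and the log2 fold change was -0.09 with a 95% interval of -0.38 to 0.20 (edgeR adjusted p = 0.621), against 0.36 with total counts as the scaling (adjusted p = 0.0527). The interval leaves room for a fold between 0.771 and 1.15. In the heart Erbb3 is also a gene of Schwann cells, and the Schwann cell list summed to 19.4 to 23.6 CPM in the Controls and 18.7 to 19.2 CPM in AKG, with 1 of 6 tested markers higher and 2 lower (2 higher and 1 lower with total counts). Of these markers, Sox10, the glial lineage factor, fell from 3.48 to 0.875 CPM. Epicardial markers summed to 26.9 to 29.7 CPM and 35.3 to 51.6 CPM, with 2 of 6 higher and none lower (5 of 6 higher with total counts); Wt1 was at 14.1 and 14.5 CPM and Msln at 1.63 and 2.75 CPM, neither past the threshold, although Msln was higher without AKG 3 (edgeR adjusted p = 0.0179). The 2 higher epicardial markers, named after their values were seen, were Tbx18 (8.94 to 17.9 CPM, edgeR adjusted p = 8.45e-06) and Muc16. Muc16 had 4, 7 and 1 counts in the Controls and entered the test through the AKG libraries. The part of Schwann cells and epicardial cells in the Erbb3 level was not tested.

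Egfr, the receptor of EGF, TGFα, amphiregulin and HB-EGF, was at 9.999, 11.5 and 10.4 CPM in the Controls and 11.7, 14.7 and 11.6 CPM in AKG. The groups did not overlap, although only 11.5 and 11.6 CPM separated the nearest libraries. The means were 10.6 ± 0.773 and 12.7 ± 1.71 CPM, with a log2 fold change of 0.25 (95% interval -0.03 to 0.54, edgeR adjusted p = 0.129). Egfr passed the threshold with total counts as the scaling (0.69, adjusted p = 0.000511) and in AKG 2 alone against the Controls (0.47, adjusted p = 0.0296). Fibroblasts also carry Egfr, and their marker list summed to 2773 to 3484 CPM in the Controls and 2478 to 3256 CPM in AKG, with 2 of 10 markers higher and 4 lower (3 higher and 2 lower with total counts). Among them Pdgfra, a receptor that marks fibroblasts, rose from 51.2 to 71.8 CPM. Col1a1, a collagen chain, did not pass the test, but it was lower without Control 3 (log2 fold change -0.39, edgeR adjusted p = 0.0253) and without AKG 1 (-0.39, adjusted p = 0.0181). The 4 lower markers, named after their values were seen, were Pi16 (74.8 to 21.05 CPM), Mfap5 (92.5 to 32.8 CPM), Dcn (510 to 355 CPM) and Lum (125 to 99.5 CPM), with log2 fold changes of -1.39, -1.05, -0.083 and 0.11 under total counts. Their part in the Egfr level was not tested.

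Levels were compared between genes on the deposited FPKM values, which are scaled by transcript length and by total counts, not by TMM. In the Controls the order was Errfi1 (mean 6.88 FPKM), Hbegf (3.80), Erbb2 (3.06), Erbb3 (1.75), Egfr (1.02), Erbb4 (0.854) and Nrg1 (0.527), and only Egfr and Erbb4 overlapped among neighbours. In AKG it was Errfi1 (13.6 FPKM), Erbb2 (6.97), Hbegf (2.75), Erbb3 (2.25), Erbb4 (1.78), Egfr (1.48) and Nrg1 (1.43). From Hbegf down, each neighbouring pair overlapped in AKG. In a check added after the values were seen, counts were divided by FPKM and by the total counts of the library. The effective length so obtained was the same in every library for Erbb2 (5.01 kb), Erbb3 (6.02 kb), Hbegf (2.37 to 2.38 kb) and Errfi1 (3.04 kb). For Nrg1 it ran from 2.62 to 4.23 kb, for Egfr from 8.13 to 10.02 kb and for Erbb4 from 10.9 to 11.8 kb, so the FPKM of these genes depends on which isoforms the counting assigned. The median ratio of the largest to the smallest effective length over 11718 genes was 1.04, against 1.61 for Nrg1.

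Among the 4 receptor genes, Erbb2 made up 45.9 ± 3.04% of the summed FPKM in the Controls and 55.9 ± 1.96% in AKG. The share of Erbb3 was 26.1 ± 1.25% and 17.9 ± 1.78%. These shares do not depend on the scaling of the library. In every AKG library the Erbb2 share was above, and the Erbb3 share below, that of every Control. The groups overlapped for the other receptors, with Erbb4 at 12.8 ± 0.730% and 14.3 ± 3.29% and Egfr at 15.2 ± 2.17% and 11.9 ± 1.74%.

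All 6 pairs of receptor genes were compared by their log2 ratio of counts within a library, with an exact two-sided permutation test over libraries, which cannot go below p = 0.1 with 3 against 3. The ratio of Erbb2 to Erbb3 was 1.78-fold higher in AKG (log2 difference 0.83, exact permutation p = 0.1, adjusted over the 6 pairs 0.2). On the FPKM scale that ratio was 1.77 ± 0.197 in the Controls and 3.14 ± 0.315 in AKG, with no overlap. The ratio of Erbb2 to Erbb4 was 3.60 ± 0.271 and 4.07 ± 1.05 on the FPKM scale, and the groups overlapped (log2 difference of counts 0.11, exact permutation p = 0.7, adjusted 0.7). Its log2 difference was 0.31 without AKG 1 and -0.06 without AKG 2. The ratio of Erbb3 to Erbb4 was 2.05 ± 0.164 and 1.30 ± 0.309 on the FPKM scale, with all AKG libraries below all Controls (log2 difference of counts -0.72, exact permutation p = 0.1, adjusted 0.2). Erbb2 to Egfr also separated the groups (0.49, exact permutation p = 0.1, adjusted 0.2). The other pairs, Erbb3 to Egfr (-0.34, exact permutation p = 0.3, adjusted 0.45) and Erbb4 to Egfr (0.38, exact permutation p = 0.4, adjusted 0.48), overlapped. No pair passed the threshold, and none could have.

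**Figure D3:**
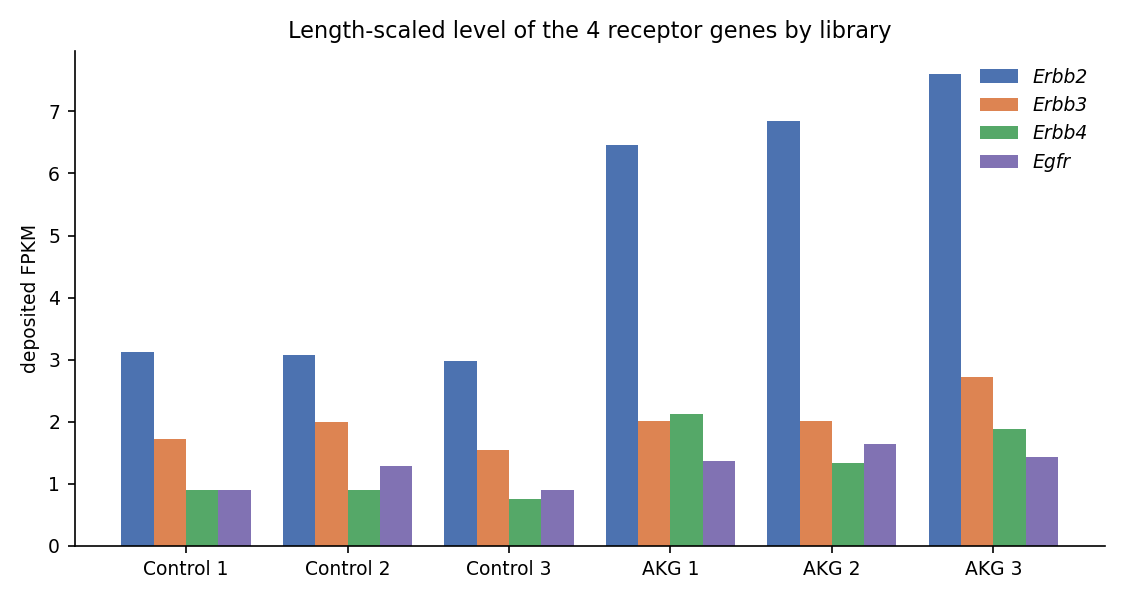
Deposited FPKM of Erbb2, Erbb3, Erbb4 and Egfr in each of the 6 libraries, 1 bar per gene and library. Erbb2 is the tallest bar in every library and runs from 2.97 to 3.13 FPKM in the Controls and from 6.46 to 7.60 FPKM in AKG. FPKM are scaled by total counts, and the Erbb2 group means differ 2.28-fold on this scale, against 1.67-fold with TMM.

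Nrg1, the neuregulin that binds ERBB3 and ERBB4, had the lowest mean FPKM of the 7 in either group, with 32, 28 and 23 counts in the Controls and 53, 74 and 95 counts in AKG. These correspond to 2.18, 1.74 and 1.69 CPM and to 2.98, 4.59 and 5.27 CPM. All AKG libraries were above all Controls, with AKG 1 the lowest of the 3. Nrg1 rose 2.28-fold (95% interval 1.53 to 3.40), from 1.87 ± 0.267 to 4.28 ± 1.18 CPM (log2 fold change 1.19, SE 0.267, edgeR adjusted p = 0.00214). A change of at least this size was seen in 3.55% of tested genes. Endothelial markers, those of the main known cardiac source of Nrg1, summed to 1642 to 1769 CPM in the Controls and 1687 to 2053 CPM in AKG, with 3 of 10 higher and 2 lower (8 higher and none lower with total counts). Cdh5, the endothelial cadherin, rose from 440 to 567 CPM. The 2 lower markers, named after their values were seen, were Emcn (76.7 to 53.7 CPM, edgeR adjusted p = 8.20e-05) and Kdr (298 to 234 CPM, adjusted p = 0.00503), with log2 fold changes of -0.074 and 0.094 under total counts. Pecam1, an endothelial adhesion molecule, rose from 278 to 323 CPM, but its call was lost without Control 1, 2 or 3 or AKG 2 (edgeR adjusted p = 0.0770 to 0.184). Endocardial markers summed to 106 to 115 CPM and 137 to 160 CPM, with 2 of 6 higher and 1 lower (5 higher and 1 lower with total counts), and Npr3, a natriuretic peptide receptor of the endocardium, rose from 14.5 to 50.6 CPM. The 1 lower endocardial marker, named after its value was seen, was Cytl1 (7.27 to 3.44 CPM, edgeR adjusted p = 0.000390). It was also lower under total counts (log2 fold change -0.65, edgeR adjusted p = 0.0108). The part of endothelial and endocardial cells in the Nrg1 level was not tested.

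Hbegf, the heparin-binding ligand of EGFR and ERBB4, moved the other way. It was at 10.8, 10.2 and 10.5 CPM in the Controls and 6.46, 5.03 and 5.27 CPM in AKG. Every AKG library lay below every Control. Hbegf fell from 10.5 ± 0.286 to 5.58 ± 0.766 CPM, to 0.532 of the Control level (95% interval 0.425 to 0.665; log2 fold change -0.91, SE 0.150, edgeR adjusted p = 0.000215). With total counts as the scaling, the log2 fold change was -0.47 (adjusted p = 0.0197). Smooth muscle and pericyte markers summed to 2056 to 2241 CPM in the Controls and 1053 to 1246 CPM in AKG, with 5 of 8 lower and none higher (2 higher and 2 lower with total counts). Macrophage markers summed to 121 to 176 CPM and 71.2 to 98.2 CPM, with 6 of 9 lower and none higher (1 higher and 4 lower with total counts), whereas neutrophil markers summed to 0.957 to 1.63 CPM and 6.18 to 13.0 CPM, with all 4 tested higher on either scaling. The 4 tested neutrophil genes (Ngp, S100a9, Ltf and Mmp9) had only 1 to 5 counts in each Control. They entered the test through the AKG libraries, so their common direction follows from the filter. The part of smooth muscle cells, pericytes, macrophages and neutrophils in the Hbegf level was not tested.

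**Figure D4:**
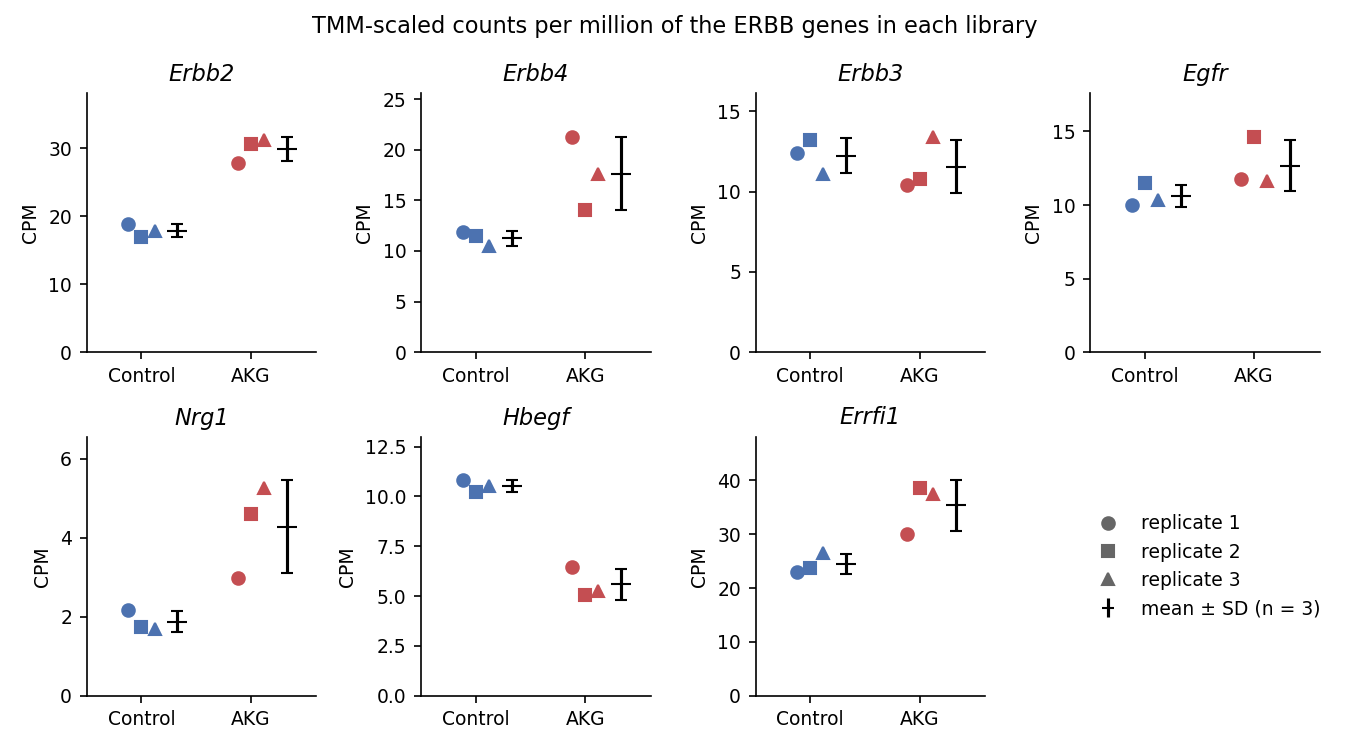
CPM (TMM-scaled) of the 7 genes in each library, with the mean and SD of each group of 3. Erbb3 is the gene whose groups overlap; Hbegf has all AKG libraries below the Controls, and the other 5 genes have all AKG libraries above them.

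Errfi1 encodes MIG6, which binds the active kinase domain of ERBB receptors and shuts it off, and its transcript is known as a feedback product of receptor signalling and as a target of glucocorticoids. It was at 23.0, 23.8 and 26.5 CPM in the Controls and 30.0, 38.7 and 37.4 CPM in AKG. The groups did not overlap, and AKG 1 was the lowest of its group. Errfi1 rose 1.45-fold (95% interval 1.23 to 1.70), from 24.4 ± 1.83 to 35.4 ± 4.69 CPM (log2 fold change 0.53, SE 0.109, edgeR adjusted p = 0.00108). The summed level of 10 glucocorticoid target genes was 1020, 1007 and 1161 CPM in the Controls and 1035, 1302 and 1505 CPM in AKG. AKG 1 was the lowest AKG library for that sum as well. Most of the sum was Pdk4, named after its values were seen, at 646, 615 and 644 CPM in the Controls and 613, 648 and 837 CPM in AKG. Pdk4 did not pass the threshold (edgeR adjusted p = 0.306). Of these 10 genes, 1 was higher (Mt2, a metallothionein, named after its value was seen) and none was lower, against 7 higher with total counts. Immediate early genes summed to 255 to 288 CPM and 291 to 322 CPM, with 4 of 12 higher and 2 lower (7 higher and 1 lower with total counts). The part of either list in the Errfi1 level was not tested.

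The submitters' notes name DESeq2, which tests counts, so an FDR in the authors' deposited table may not be a test of the FPKM ratio beside it. In that table the log2 ratio of FPKM means was 1.19 for Erbb2 (FDR 8.27e-08), 1.06 for Erbb4 (FDR 0.00133), 1.44 for Nrg1 (FDR 0.00195) and 0.98 for Errfi1 (FDR 0.000352). The authors' deposited table gave -0.47 for Hbegf (FDR 4.39e-05), 0.36 for Erbb3 (FDR 0.812) and 0.53 for Egfr (FDR 0.280). These ratios lie above the TMM-scaled fold changes for all 7 genes.

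The remaining genes of the pathway were taken from 7 lists holding 105 genes, of which 98 were tested. Of these, 38 were higher and 18 lower in AKG (57.1% called, beside 50.2% of all tested genes), with a median log2 fold change of 0.20 beside 0.00 for all tested genes. Scaled by total counts, the split was 71 higher and 3 lower (Stub1, Stat5a and Ier3), with a median of 0.64 beside 0.45. The deposited table annotates 87 genes with an ErbB signalling pathway term, among them 6 of the 7 symbols above and 46 of the 105 list genes. Its 79 tested genes had a median of 0.17, and 30 of them were higher and 12 lower, against 54 higher and 3 lower with total counts. Genes named below beyond the 4 with the smallest p in each list were chosen after their values were seen.

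Among the other ligands, 4 of 9 could be tested, 2 were higher and none was lower. Tgfa, which encodes the EGFR ligand TGFα, had 8, 17 and 10 counts in the Controls and 68, 58 and 76 counts in AKG, with no overlap. Tgfa rose from 0.778 to 3.88 CPM (log2 fold change 2.29, edgeR adjusted p = 2.81e-05). Its Control counts lay around the filter minimum of 10, and it entered the test through the AKG libraries. Its place among the tested and higher ligands thus depended on its higher level there. Btc, which encodes betacellulin, a ligand of EGFR and ERBB4, rose from 0.813 to 1.93 CPM (1.25, adjusted p = 0.00771), but its call was lost with the atrial covariate (adjusted p = 0.202) and in AKG 2 alone against the Controls (adjusted p = 0.236). Areg, Epgn, Ereg, Nrg2 and Nrg3 were too low to test.

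Of 10 genes for the proteases that process and release ligands, 5 were higher and 1 was lower (9 higher and none lower with total counts). Adam12, a metalloprotease known to shed HB-EGF, rose from 3.98 to 12.3 CPM (log2 fold change 1.62, edgeR adjusted p = 2.83e-06). Adam19, which can cleave neuregulin, rose from 84.3 to 157 CPM (0.89), and the related Adam9 and Adam10 rose from 41.1 to 63.6 CPM and from 56.6 to 81.2 CPM. Furin, a proprotein convertase, rose from 65.8 to 106 CPM. Adam17, the main sheddase of several EGFR ligands, fell from 36.9 to 27.0 CPM (-0.45, adjusted p = 0.00266), although on log2(FPKM + 1) its difference was 0.01. Without AKG 3, 2 genes of this list were lower.

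In the adaptor, RAS and ERK list, 8 of 20 tested genes were higher and 4 were lower (14 higher and none lower with total counts). The docking proteins Gab1 and Gab2 rose from 47.7 to 72.6 CPM and from 22.9 to 34.4 CPM, and Nras, a RAS GTPase, rose from 44.0 to 61.3 CPM. Among the lower genes were Araf, a RAF kinase (79.5 to 60.3 CPM), Map2k2, the kinase MEK2 (86.3 to 66.2 CPM), and Hras, a RAS GTPase (35.3 to 24.6 CPM). The differences of Araf and Map2k2 were above 0 with total counts as the scaling.

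In the PI3K and AKT list, 7 of 16 genes were higher and 2 were lower (13 higher and none lower with total counts). Pdpk1, the kinase that activates AKT, rose from 32.1 to 47.0 CPM, and Pik3ca, a catalytic subunit of PI3K, rose from 47.5 to 61.6 CPM. Pik3r3, a regulatory subunit, fell from 30.8 to 21.5 CPM, and Mtor fell from 61.1 to 48.8 CPM, with its difference above 0 when total counts were the scaling. Of the higher genes, Rictor, a subunit of an mTOR complex, lost its call in each fit without 1 library other than that without AKG 3 (edgeR adjusted p = 0.0677 to 0.102). Gsk3b, a kinase inhibited by AKT, lost its call without Control 1, 2 or 3 or AKG 1 (0.0563 to 0.0942). Of 11 other effectors, 5 were higher and 3 lower (8 higher and 1 lower with total counts), with 3 higher without Control 2. Src, a kinase that binds active receptors, rose from 5.65 to 11.8 CPM (log2 fold change 1.06) and the kinase gene Jak2 from 28.5 to 41.8 CPM. Stat5a, a transcription factor downstream of ERBB4, fell from 17.6 to 9.94 CPM (-0.82), and the adaptor gene Nck1 fell from 42.4 to 29.6 CPM. Among the higher genes, Plcg1, a phospholipase, lost its call without Control 1, 2 or 3 or AKG 2 (edgeR adjusted p = 0.0548 to 0.12), and Nck2, an adaptor, without Control 2 (0.0729). The third lower gene, Stat5b, lost its call without Control 1, 2 or 3 or AKG 1 or 2 (edgeR adjusted p = 0.0638 to 0.146), and its difference was above 0 with total counts.

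Among 21 negative regulators, 5 were higher and 4 were lower, a median of 0.07 (16 higher and 1 lower with total counts). Nedd4, a ubiquitin ligase that can target ERBB4, rose from 475 to 830 CPM (log2 fold change 0.81), and Cblb, a ubiquitin ligase of the CBL family, rose from 18.6 to 31.5 CPM. Rasa1, a RAS GTPase-activating protein, rose from 57.4 to 79.6 CPM. Stub1, which encodes CHIP, a ubiquitin ligase for ERBB2, fell from 86.5 to 55.2 CPM (-0.65). The other lower genes were Spry4 (17.2 to 9.94 CPM), a SPROUTY inhibitor of RAS signalling, Socs5 (24.1 to 17.4 CPM) and the ERK phosphatase gene Dusp6 (27.2 to 21.7 CPM). Dusp6 lost its call without Control 3 (edgeR adjusted p = 0.0559), its difference was above 0 with total counts, and that of Socs5 was above 0 on the FPKM scale. Of the higher genes, Itch, a ubiquitin ligase, lost its call without Control 1, 2 or 3 or AKG 3 (adjusted p = 0.0502 to 0.160).

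Of 16 tested genes known to respond to ERK signalling, 6 were higher and 4 were lower (9 higher and 1 lower with total counts). Myc, a growth-promoting transcription factor, rose from 6.16 to 19.7 CPM (log2 fold change 1.67), Ccnd1, which encodes cyclin D1, rose from 38.2 to 72.9 CPM (0.94), and the ETS factor gene Etv1 rose from 16.4 to 25.4 CPM. Ier3, an immediate early gene, fell from 14.2 to 7.90 CPM (-0.85). The other 3 lower genes each lost the call when 1 library was left out, namely Phlda1 (without Control 1, edgeR adjusted p = 0.0673), Ier2 (without Control 1 or Control 3, 0.0681 to 0.0731) and Dusp5 (without Control 1, Control 2, AKG 2 or AKG 3, 0.0815 to 0.128), so that 1 lower gene was left without Control 1. Of the higher genes, Fos, an AP-1 subunit, lost its call without Control 2, Control 3 or AKG 3 (0.0519 to 0.0862). With total counts the differences of Phlda1 and Ier2 were above 0. Fos, Jun, Junb, Egr1, Ier2 and Ier3 of this list are also in the immediate early list above.

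**Figure D5:**
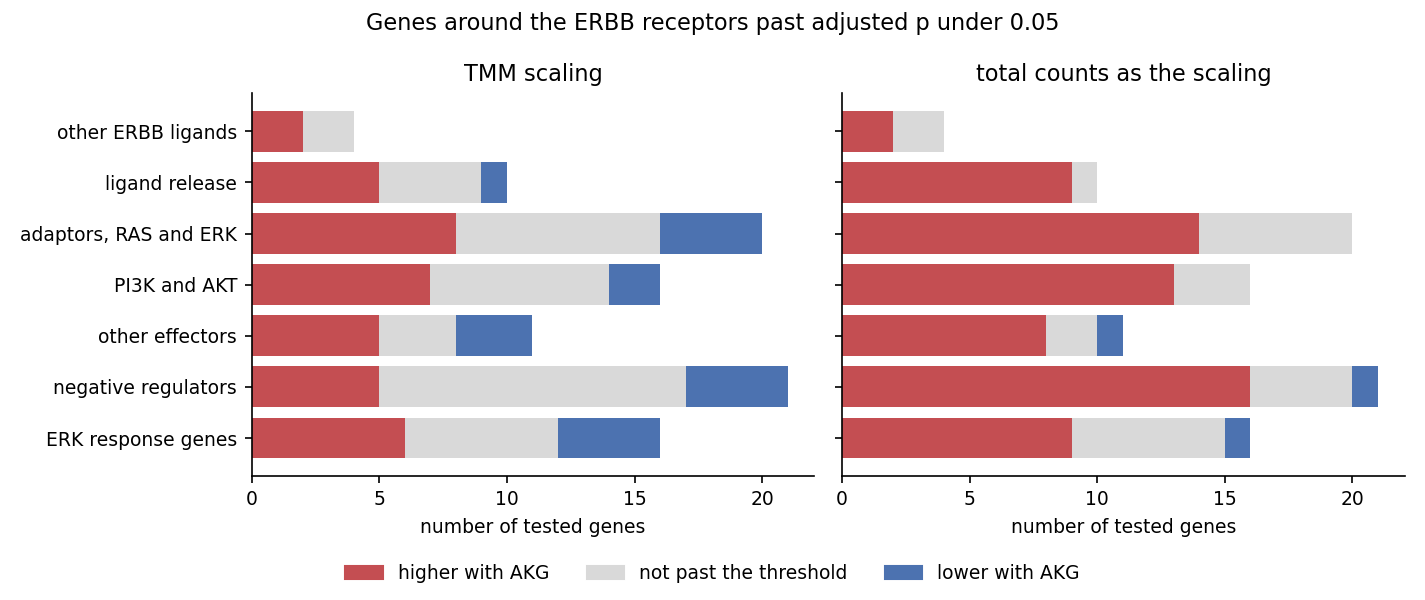
Number of tested genes in each of the 7 pathway lists that were higher, lower or not past the threshold in AKG, under TMM scaling and under total counts as the scaling. With TMM every list but that of the other ligands has genes in both directions, and with total counts 3 of the 98 genes are lower.

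For each of the 7 genes, the 3 genes with the most similar profile were sought among 12618 genes with a mean of at least 1 CPM, by the root mean square difference of log2 CPM centred over the 6 libraries. The nearest to Erbb2 were Pgrmc2 (difference 0.0479), Tbc1d8 and Sorbs2, and the nearest to Erbb4 were Creb3l2 (0.0559), Zfp937 and Gja1, the last of which encodes connexin 43. For Nrg1 they were Gadd45b (0.0780), Zfp346 and Shmt1, and for Hbegf 1810037I17Rik (0.0519), Pdf and Mrpl17. Those of Errfi1 were Mios (0.0510), Map1lc3b and Mxd4. Egfr was nearest to Casp8ap2 (0.0299), N4bp3 and Srrd, and Erbb3 to Insig2 (0.0471), Enpp4 and Dzip3. With 6 libraries in 2 groups, such likeness mainly reflects a similar difference between the groups.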

How the data were processed

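RNA was read as an mRNA library from each of 6 cardiomyocyte samples (3 Control, 3 AKG). HISAT2 2.1.0, RSEM 1.2.19 and DESeq2 1.20.0 were used, per the submitters' processing notes, with the genome build not given in the sources used here. The deposited table, in which the authors give expected counts and FPKM per gene, group means of FPKM, a log2 ratio, p-values and FDR, holds 22063 rows. All columns were matched to samples by title. The expected counts, whole numbers as deposited, were filtered (filterByExpr, minimum count 10), scaled by TMM and tested with edgeR 4.0.16 (R 4.3.3; robust quasi-likelihood, Benjamini-Hochberg over 13117 genes, threshold 0.05). The test was checked on simulated counts. Receptor ratios used exact permutation tests. Alternatives were DESeq2 1.42.0, limma 3.58.1 (voom, or log2 of FPKM plus 1 or 0.1), other scalings and filters, covariates for atrial and Y-linked genes, and fits without 1 library. Depth was 14402876 to 17797368 counts. The genes described and all lists were chosen with earlier results of these data known; named genes are the 7 family genes, up to 4 called genes of smallest p per pathway list, fixed markers (the Myh6, Tnnt2, Pecam1, Cdh5, Npr3, Pdgfra, Col1a1, Sox10, Wt1 and Msln genes) and the 3 nearest genes of each. Some genes that these rules name are not reported here. The list gene Nrdc is Nrd1 in the table. Same-numbered libraries of the groups deviated together only weakly (correlations of at most 0.15) and the labels state no pairing, so no block was used. The strand setting of the counting was not stated, so reads of overlapping genes may not be separable.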

Additional observations from a re-analysis of the deposited data

How the results depend on the processing

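Under the 20 alternatives, 4 Erbb family genes were higher and 1 lower, except 5 higher with total counts and 3 with the atrial covariate. In AKG 2 alone against the Controls, which rests on 1 AKG library, the 4 were not the same genes, with Egfr in place of Erbb4. Scaling decides the balance of calls over all genes. Among all tested genes, 3281 were higher and 3309 lower, against 7431 and 1196 with total counts, 6732 and 1068 on log2(FPKM + 1), 6725 and 1067 on log2(FPKM + 0.1), and 2071 and 2190 with the atrial covariate. Pathway list genes numbered 71 higher and 3 lower with total counts, 67 and 3 on either FPKM scale, and 25 higher with the atrial covariate. Without 1 library, all genes ranged from 2751 to 3296 higher and 2845 to 3243 lower, and the pathway lists from 32 to 41 higher and 15 to 18 lower. The log2 differences that turned positive with total counts, log2(FPKM + 1) and log2(FPKM + 0.1), in that order, were 0.36, 0.24 and 0.34 for Erbb3, 0.047, 0.23 and 0.24 for Araf, 0.063, 0.046 and 0.047 for Map2k2, 0.13, 0.20 and 0.23 for Mtor, 0.036, 0.034 and 0.038 for Phlda1, 0.12, 0.12 and 0.14 for Dusp6, 0.15, 0.14 and 0.14 for Ier2, 0.23, 0.21 and 0.23 for Stat5b, and 0.18, 0.18 and 0.18 for Col1a1. On the FPKM scales alone, Adam17 turned to 0.0069 and 0.0063 and Socs5 to 0.14 and 0.16. Without 1 library, Wt1 ranged from -0.056 to 0.2, turning negative without Control 3, AKG 1 or AKG 2. The deposited FPKM are themselves scaled by total counts, since counts divided by FPKM and by total counts gave 5.01 kb for Erbb2 in every library. The median log2 fold change of tested genes was 0.38 and 0.44 on log2(FPKM + 1) and log2(FPKM + 0.1), beside 0.45 with total counts. The FPKM fits are therefore not independent of the fit with total counts. Why Adam17 and Socs5 turned on the FPKM scales alone, and the cause of the changes in the covariate fit, was not tested. With a replicate block, 4 family genes were higher and 1 lower, and the log2 fold change of Erbb2 was 0.74. Same-numbered libraries correlated at 0.15, -0.02 and 0.04 in their deviations, against -0.11 to 0.06 for the other pairs. The labels do not say whether the number is a pairing, and these correlations cannot exclude one. With 3 libraries per group, and 23 counts for Nrg1 in the lowest library, modest differences such as those of Egfr and Erbb3 are bounded only by their intervals.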

Other observations

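Outside the 7 genes and the pathway lists, 31 further tested genes carried the deposited ErbB signalling pathway term, of which 10 were higher and 2 lower in AKG (38.7% called, beside 50.2% of all tested genes; 22 higher and 1 lower with total counts). The genes named here were chosen after their values were seen. Among the 10 higher genes, Shc4 had 10, 8 and 4 counts in the Controls and Pak3 had 10, 20 and 15. Both needed the AKG libraries to pass the filter on low counts, so the filter favoured their direction. Eif4ebp1, which encodes the translation repressor 4E-BP1, rose from 51.3 ± 0.979 to 127 ± 7.52 CPM (SD, n = 3; edgeR log2 fold change 1.30, adjusted p = 2.56e-08). Cdkn1b, which encodes the cell cycle inhibitor p27, rose from 55.7 ± 4.14 to 95.1 ± 14.9 CPM (0.77, edgeR adjusted p = 0.000130). Its relative Cdkn1a, which encodes p21, was at 29.7, 31.7 and 35.6 CPM in the Controls and 39.4, 64.1 and 83.7 CPM in AKG, with no overlap, and did not pass the threshold (edgeR adjusted p = 0.0512). The 2 lower genes were Camk2b, a subunit of the calcium/calmodulin-dependent kinase (9.37 ± 0.487 to 5.06 ± 0.508 CPM), and Rps6kb2, a ribosomal S6 kinase (31.0 ± 2.43 to 21.5 ± 2.19 CPM).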
